A study of Mus musculus with 4 samples.

Results

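A set of 10 genes that mark neural stem cells and radial glia were followed through single-cell RNA-seq of mouse tumours: Nes, Vim, Fabp7, Sox2, Sox9, Prom1, Gfap, Slc1a3, Hopx and Gdf10. They were chosen by name, and all 10 were found among the 32286 features of the count matrices. Radial glia are the stem cells of the embryonic brain, and they stretch long processes that guide migrating neurons. In the cerebellum, Bergmann glia keep much of the radial glia programme for life, while granule neuron progenitors, the cells that sonic hedgehog signalling drives to divide, leave the stem state and become neurons. The genes are therefore shared to different degrees by astroglia, by dividing progenitors and by neurons, and the question put to the data was which of these cells held each of them and how their levels differed between the genotypes.

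Tumour tissue labelled MB was profiled with a 10x Genomics 3' kit, which counts unique molecular identifiers (UMIs), one for each captured RNA molecule. There were 4 libraries, 1 for each genotype and sex, so no genotype had a replicate within a sex. SG animals carried fSMO-M2, a Cre-dependent, constitutively active form of Smoothened, together with hGFAPcre, a Cre recombinase under the human GFAP promoter. YSG animals carried fYap1, a floxed allele of the transcriptional co-activator Yap1, in addition to those same alleles, which the SG controls share, and the design text calls the YSG animals rescued and all animals at end point. The human GFAP promoter is active in neural stem cells that give rise to both neurons and glia of the cerebellum, so Cre is not limited to 1 lineage. The labels give neither the animals' age nor how many were pooled in a library. The libraries held 58478914 to 86906706 UMIs in 7289 to 8505 cell barcodes. Values in sets of 4 below follow the order SG males, YSG males, then the SG and the YSG females. As a check of the labels, Yap1 itself gave 266 UMIs (3.64 per 1000000 UMIs, written CPM) in SG males and 10 (0.164 CPM) in YSG males, and 374 (4.31 CPM) in SG females and 3 (0.0515 CPM) in YSG females.

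The positions below are those of GENCODE M21 on the mm10 build, and all 10 genes are protein coding. The intermediate filament genes were Nes (ENSMUSG00000004891) at chr3:87971078-87980451 on the plus strand, Vim (ENSMUSG00000026728) at chr2:13573927-13582826 on the plus strand and Gfap (ENSMUSG00000020932) at chr11:102887336-102900912 on the minus strand. The transcription factor genes were Sox2 (ENSMUSG00000074637) at chr3:34650405-34652461 and Sox9 (ENSMUSG00000000567) at chr11:112782224-112787760, both on the plus strand, and the homeodomain cofactor gene Hopx (ENSMUSG00000059325) at chr5:77086988-77115121 on the minus strand. Fabp7 (ENSMUSG00000019874), which encodes a fatty acid carrier, lies at chr10:57784881-57788450 on the plus strand, and Slc1a3 (ENSMUSG00000005360), which encodes the glial glutamate transporter GLAST, at chr15:8634124-8710764 on the minus strand. Prom1 (ENSMUSG00000029086), which encodes the membrane protein CD133, lies at chr5:43993620-44102032 on the minus strand, and Gdf10 (ENSMUSG00000021943), which encodes a secreted ligand of the TGF-beta superfamily, at chr14:33923587-33937983 on the plus strand. Sox2 overlaps Sox2ot on the same strand (751 UMIs in all libraries) and Prom1 overlaps Gm42716 (128 UMIs), so reads of the shared stretches cannot be assigned to 1 gene with certainty.

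Short motifs were searched on both strands in the 250 bases before each RefSeq start (GRCm38.p6), because YAP binds DNA through TEAD factors, Smoothened acts through GLI factors and the stem cell state depends on SOX factors and on RBPJ, the DNA-binding partner of Notch. Starts were listed for 9 of the 10 genes, 11 windows in all, and Sox9 has no entry. The TEAD letters GGAATG were in none of the 11 windows and in 12.6% of 32851 windows of all genes. The GLI letters TGGGTGG were in the window of Gfap and in 8.11% of all windows, and the SOX letters ATTGTT in a window of Hopx and in 9.42% of all windows. The RBPJ letters TGGGAA were in the windows of Fabp7, Gfap and Prom1 and in 21.6% of all windows. The stretches of Fabp7 and Gfap are shown because these genes had the lowest and the highest YSG to SG ratios in cycling cells below. They are written 5' to 3' on the gene's strand with the matched letters in capitals, and the match ends 244 bases before the start in Fabp7, 110 for the RBPJ letters of Gfap and 228 for its GLI letters.
Fabp7, RBPJ letters read from the other strand (chr10:57784673-57784690): gTTCCCAggccccgctga
Gfap, RBPJ letters read from the other strand (chr11:102897299-102897326): ccaggctggtgTTCCCAagaaagccttg
Gfap, GLI letters (chr11:102897417-102897445): cagctagaactTGGGTGGgtcttcatgct
These matches are descriptions of the letters, and neither binding nor chromatin was measured here.

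Cells were placed in groups by markers that do not include the 10 genes. Aqp4-positive cells had 2 or more UMIs of Aqp4, the water channel of astrocytes. Tumour cells had no Aqp4 UMI, no clear set of markers of another cell type and 2 or more UMIs of granule neuron lineage genes such as Atoh1, Barhl1 and Zic1. Cycling tumour cells had 15 or more UMIs of division genes per 10000, and postmitotic tumour cells had 25 or more of neuronal genes per 10000 with fewer than 3 of division genes. Aqp4-positive cells numbered 101, 29, 102 and 13. Cycling cells numbered 2698, 2194, 2684 and 1676, and postmitotic cells 1571, 2166, 1266 and 2950. The median cell had between 6581 and 12858 UMIs in the Aqp4-positive groups, between 9064.5 and 12643.5 in the cycling groups and between 4613 and 5527.5 in the postmitotic groups. Each library had 180 to 285 cells near the cycling threshold (12 to 18 per 10000) and 763 to 1435 near the postmitotic one (20 to 30 per 10000).

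The Aqp4-positive label held less well in 1 library. A list of 12 other astroglial genes, such as Aldoc, Mlc1 and Apoe, had a median of 112 UMIs per 10000 in the Aqp4-positive cells of SG males, 124 in YSG males and 68.1 in SG females, against 11.6 in YSG females. Only 4 of the 13 Aqp4-positive cells of YSG females carried the list at 40 or more per 10000, against 65 of 101, 17 of 29 and 63 of 102 in the other libraries, and 10 of the 13 had exactly 2 Aqp4 UMIs. In that library the cell richest in a gene held 50.4% of the Vim UMIs, 51.5% of the Sox9, 63.8% of the Slc1a3 and 71.9% of the Fabp7 UMIs of the group. The richest cell was found for each gene by itself and need not be the same cell. The Aqp4-positive sums also held 17.1 to 21.0 UMIs of the granule lineage list per 10000, beside 17.8 to 21.8 in cycling cells, and 13.8 to 30.3 of the division list, and the part of tumour RNA in them was not tested. Libraries shared between 9 and 21 cell barcodes in each pair.

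The members split into those that were concentrated in Aqp4-positive cells and those whose ranges over libraries overlapped with those of cycling tumour cells. Fabp7, Slc1a3, Gfap, Hopx and Gdf10 were 8.43-fold to 60.6-fold higher in Aqp4-positive than in cycling tumour cells. Nes, Vim, Sox2, Sox9 and Prom1 had fitted differences under 2-fold over the 4 libraries, and Nes, Sox9 and Prom1 did not pass the test. In single libraries Vim in both YSG libraries and Nes in YSG females differed by more. So did Prom1 in YSG males, which was lower in Aqp4-positive cells, on 1 UMI there. The plot of levels by library and cell group shows both patterns.

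**Figure D1:**
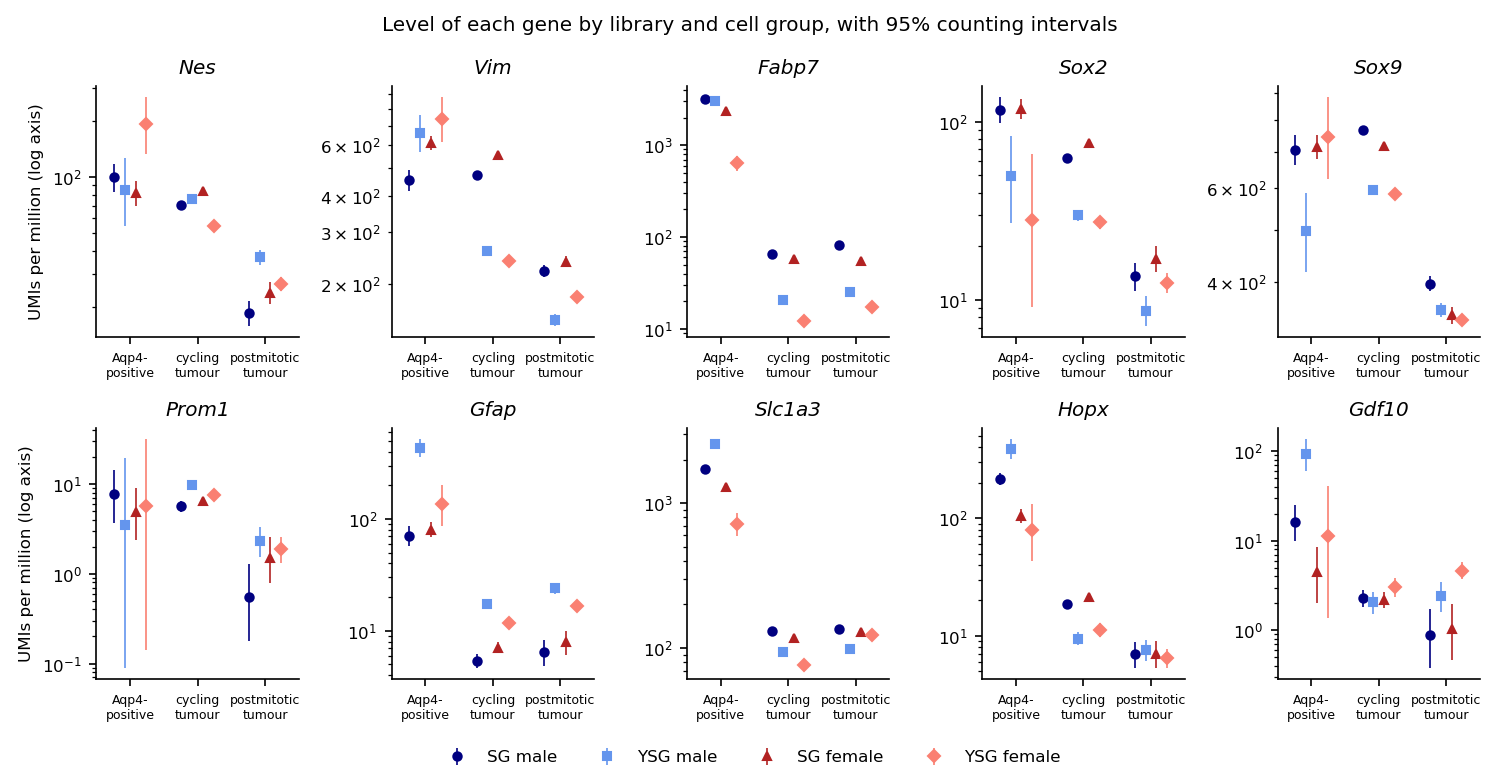
Level of each of the 10 genes in CPM (log axis) in Aqp4-positive, cycling tumour and postmitotic tumour cells, 1 point per library with its 95% Poisson interval, which covers counting error only. Fabp7, Slc1a3, Gfap and Hopx lie higher in the Aqp4-positive cells of every library than in any tumour group, while the Aqp4-positive and cycling points of Nes, Vim, Sox2, Sox9 and Prom1 overlap in range.

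Fabp7 has long been used to stain radial glia and Bergmann glia. Its level in Aqp4-positive cells was 3223, 3003, 2376 and 643 CPM, against 65.3, 20.7, 57.1 and 12.2 CPM in cycling tumour cells. The YSG female library was the lowest of the Aqp4-positive group, and it still lay above every tumour group. The fold between Aqp4-positive and cycling cells was 5.92 ± 0.26 (SE, 4 libraries) on the log2 scale, with an adjusted p of 2.00e-09 in edgeR's quasi-likelihood test with Benjamini-Hochberg adjustment.

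Slc1a3, whose transporter clears glutamate from synapses, was at 1733, 2562, 1286 and 716 CPM in Aqp4-positive cells. In cycling cells it was at 131, 94.7, 117 and 76.7 CPM, and in postmitotic cells at 136, 98.6, 129 and 124 CPM. The tumour groups overlapped with each other and not with the Aqp4-positive cells. The log2 fold of Aqp4-positive over cycling cells was 3.81 ± 0.23 (edgeR, adjusted p 4.87e-08).

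Gfap, the filament gene of mature and reactive astrocytes, was at 70.8, 431, 80.1 and 135 CPM in Aqp4-positive cells. In cycling cells it was at 5.40, 17.4, 7.08 and 11.7 CPM, and in postmitotic cells at 6.40, 23.96, 7.88 and 16.8 CPM. In every group both YSG libraries lay above both SG libraries, which is an order of 4 values and was not tested. The log2 fold of Aqp4-positive over cycling cells was 3.84 ± 0.18 (edgeR, adjusted p 2.86e-09).

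Hopx, a marker of outer radial glia and of quiescent stem cells, was at 215, 388, 104 and 78.9 CPM in Aqp4-positive cells, at 18.6, 9.47, 21.5 and 11.2 CPM in cycling cells and at 6.95, 7.51, 6.96 and 6.41 CPM in postmitotic cells. The 3 groups did not overlap. Its log2 fold of Aqp4-positive over cycling cells was 3.45 ± 0.35 (edgeR, adjusted p 6.82e-06). Gdf10 marks Bergmann glia in the cerebellum. It had 21, 26, 9 and 2 UMIs in the Aqp4-positive cells, or 16.2, 91.8, 4.42 and 11.3 CPM, against 2.05 to 3.03 CPM in cycling cells. The log2 fold was 3.07 ± 0.61 (edgeR, adjusted p 0.00183), and YSG males stood above the other libraries.

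Other members were held by both groups. Sox9, a SOX factor of glial and stem cells, was at 705, 498, 714 and 744 CPM in Aqp4-positive cells and at 768, 593, 717 and 583 CPM in cycling cells. The groups overlapped, and the log2 fold was −0.07 ± 0.09 (edgeR, adjusted p 0.623). Nes, the filament gene that defines neural progenitors, was at 99.3, 84.7, 82.0 and 192 CPM in Aqp4-positive cells and at 70.1, 76.2, 84.0 and 54.1 CPM in cycling cells, with a log2 fold of 0.43 ± 0.23 (edgeR, adjusted p 0.172). In the YSG female library 17 of the 34 Nes UMIs of Aqp4-positive cells came from 1 cell. Prom1 was rare, at 10, 1, 10 and 1 UMIs in the Aqp4-positive cells, and its log2 fold was −0.18 ± 0.35 (edgeR, adjusted p 0.754).

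Sox2, the SOX factor that holds cells in the stem state, was at 117, 49.4, 118 and 28.2 CPM in Aqp4-positive cells and at 62.6, 29.8, 75.9 and 27.3 CPM in cycling cells. It was higher in the Aqp4-positive cells of each library, by a log2 fold of 0.77 ± 0.19 (edgeR, adjusted p 0.00741). Both YSG libraries lay below both SG libraries in each of these groups. Vim, the filament gene of radial glia and of many mesenchymal cells, was at 453, 660, 609 and 739 CPM in Aqp4-positive cells and at 473, 258, 556 and 240 CPM in cycling cells. Its log2 fold of 0.56 ± 0.20 (edgeR, adjusted p 0.0493) barely passed the threshold, and SG males went the other way. The Vim call held in 6 of 16 other settings (edgeR or DESeq2, adjusted p from 1.52e-05 to 0.425) and the Sox2 call in 12 of 16 (adjusted p up to 0.494). Vim did not pass without YSG females or without YSG males, and Sox2 did not pass without SG males.

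In all, 7 of 10 members were higher in Aqp4-positive than in cycling cells and none was lower at an adjusted p of 0.05 or less, beside 15.8% of the 13254 genes tested that were higher and 14.3% that were lower. Against postmitotic cells all 10 members were higher in Aqp4-positive cells, from a log2 fold of 0.90 ± 0.09 for Sox9 to 5.78 ± 0.26 for Fabp7, beside 22.5% of genes higher and 16.1% lower. The median log2 fold of the 10 was 1.92 against cycling cells and 3.05 against postmitotic cells, where the median of all genes was −0.01 and 0.02. The genes used to define the cell groups had no test.

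Within the tumour, cycling cells held more of the progenitor members than postmitotic cells did. Prom1 was at 5.63, 9.67, 6.46 and 7.53 CPM in cycling cells, against 0.552, 2.32, 1.48 and 1.88 CPM in postmitotic cells. Its log2 fold of 2.30 ± 0.22 (edgeR, adjusted p 8.88e-07) was the highest of the members. Sox2 was at 13.6, 8.71, 17.0 and 12.5 CPM in postmitotic cells and Nes at 18.4, 36.9, 23.7 and 26.6 CPM, below every cycling group.

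The log2 folds of cycling over postmitotic cells were 1.90 ± 0.16 for Sox2 (edgeR, adjusted p 2.56e-07) and 1.53 ± 0.18 for Nes (edgeR, adjusted p 6.34e-06). Hopx, Vim and Sox9 were also higher in cycling cells, by log2 folds of 1.20 ± 0.34, 1.004 ± 0.18 and 0.97 ± 0.08. Sox9 still stood at 340 to 398 CPM in postmitotic cells and Vim at 150 to 238 CPM. Of the 10 members, 6 were higher in cycling cells and none was lower, beside 29.0% of all genes higher and 30.2% lower.

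Fabp7, Gfap, Slc1a3 and Gdf10 did not pass the test between the tumour groups, with log2 folds of −0.14 ± 0.23, −0.26 ± 0.16, −0.16 ± 0.21 and 0.35 ± 0.49. These are 4 of the 5 members that Aqp4-positive cells held at far higher levels. Hopx, the fifth, was alone among them in its difference between cycling and postmitotic cells.

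**Figure D2:**
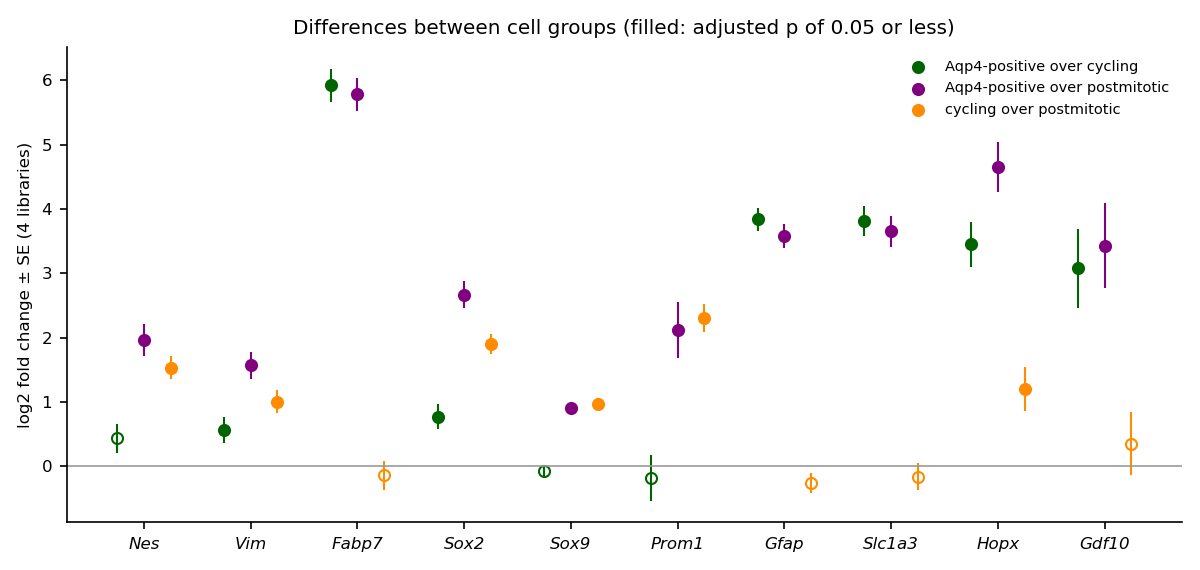
Log2 fold change of each gene between pairs of cell groups, with the standard error from edgeR over 4 libraries; filled points have an adjusted p of 0.05 or less and open points do not. Fabp7, Gfap, Slc1a3, Hopx and Gdf10 have high values for both Aqp4-positive comparisons and lie near 0 to 1.2 between the tumour groups, while Prom1, Sox2 and Nes lie above 1 in both comparisons with postmitotic cells.

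Other genes of these programmes gave a wider view. Of 25 further neural stem and glial progenitor genes, 23 were tested, and 18 were higher in Aqp4-positive than in cycling cells while none was lower, with a median log2 fold of 2.22 beside −0.01 for all genes. The highest were Ttyh1, Hes5 and Ptprz1, at log2 folds of 6.13 ± 0.29, 5.98 ± 0.36 and 5.80 ± 0.26. Hes5 encodes a repressor switched on by Notch and Ptprz1 a receptor phosphatase of radial glia. Between the tumour groups 12 of the 23 were higher in cycling cells, led by Notch1 (2.70 ± 0.19), Notch2 (2.47 ± 0.22) and Hes1 (2.47 ± 0.22), and 3 were higher in postmitotic cells, Id4, Msi2 and Msi1, with a median of 0.64 beside −0.02. Of the 9 Bergmann glia and astrocyte genes tested, 8 were higher in Aqp4-positive than in cycling cells, and Ednrb, an endothelin receptor gene, led them with a log2 fold of 7.69 ± 0.18, before A2m (7.11 ± 0.64) and Aldh1l1 (6.09 ± 0.29). The median of the 9 was 4.56. Of all genes tested, 15.8% were higher and 14.3% lower in Aqp4-positive than in cycling cells. Between cycling and postmitotic cells 29.0% were higher and 30.2% lower in cycling cells.

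The genes whose levels ran most nearly in parallel with each member were ranked over the 12 sums of library and cell group, among 8911 genes. For Fabp7 they were Dag1, Kcnj10 and Metrn, with Pearson's r from 0.985 to 0.990. For Slc1a3 they were Pla2g7, Ramp1 and Acsbg1 (0.992 to 0.994), and for Hopx Zcchc24, Emp2 and Pmp22 (0.989 to 0.993). Prom1 ran with Psrc1, Prim1 and Cdc6 (0.956 to 0.960). Vim ran with Itsn2, Cd44 and Runx1 (0.965 to 0.986), and Sox2 with Fzd1, Rgma and Trps1 (0.966 to 0.973). Gfap ran with Appl2, Ctsa and Parp3 (0.976 to 0.982), Gdf10 with Naaa, Nfkbia and P2rx4 (0.953 to 0.974), Nes with Cmtm3, Tagln2 and Nfe2l2 (0.962 to 0.965) and Sox9 with Arhgap18, Ets1 and Cbfb (0.972 to 0.975). Among the members, Fabp7 and Slc1a3 were the closest pair, at r = 0.979. The 12 sums share libraries and cell groups, so these values describe an ordering and have no test.

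The share of cells with a UMI of a member followed the levels once every cell was thinned to 2000 UMIs. With cells of the 4 libraries pooled, Fabp7 was seen in 71.4% of 213 Aqp4-positive cells (76.1%, 59.3% and 75.0% in the first 3 libraries and 3 of 10 cells in YSG females), in 6.88% of 9035 cycling cells and in 6.78% of 7506 postmitotic cells. By library the cycling shares were 10.8%, 3.76%, 8.46% and 2.03%, and the postmitotic shares 14.1%, 4.77%, 9.32% and 3.32%. The postmitotic share was thus the higher in each library, which the pooled values do not show, and this was not tested. Without thinning the pooled shares were 92.7%, 31.1% and 16.4%. The median cycling and postmitotic cell held 10642.5 and 5087 UMIs. Sox9 was seen in 61.0%, 63.3% and 39.1% of the thinned cells of the 3 groups, and Prom1 in 1.88%, 1.45% and 0.320%. Thinning left out 32 Aqp4-positive, 217 cycling and 447 postmitotic cells.

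Free RNA from broken cells enters droplets, so the level of each member in tumour cells was set beside that of cells and genes that bear on it. Leukocytes, 76 cells in all with a median of 1456.5 UMIs, held Fabp7 at 30.8 CPM (95% Poisson interval 13.3 to 60.8, on 8 UMIs). Cycling and postmitotic cells held it at 44.8 and 37.7 CPM, both inside that interval. Thinned, 1 of 33 leukocytes had a Fabp7 UMI, 3.03% (0.0767% to 15.8%), which spans the shares in tumour cells. With the libraries pooled, the Fabp7 level in tumour cells was therefore not distinguishable from that in leukocytes. YSG males and females gave 20 and 36 of the 76 leukocytes, while SG libraries gave most of the cycling cells, so this pooled comparison mixes the libraries unequally. Within SG males 1 leukocyte UMI gave 47.8 CPM (1.21 to 266), an interval that also holds the 65.3 and 82.1 CPM of tumour cells. Cells with oligodendrocyte markers, 74 in all, held Fabp7 at 267 CPM when pooled (226 to 314), above both tumour groups. They held Sox2 at 299 CPM (219 to 373 by library), above its pooled 109 CPM in Aqp4-positive and 55.2 CPM in cycling cells. Nes, Vim, Sox9 and Slc1a3 were lower there than in cycling cells when pooled. The source of these UMIs was not tested.

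Hopx was at 15.4 CPM in leukocytes (4.203 to 39.5), and its 16.7 CPM in cycling and 6.89 CPM in postmitotic cells also lay inside that interval. Slc1a3 was at 27.0 CPM in leukocytes (10.9 to 55.6), below its 110 and 121 CPM in cycling and postmitotic cells when pooled, though the leukocyte interval within each of 3 libraries, all but YSG females, held the cycling level. Sox9 was at 127 CPM (87.6 to 179), below its 685 and 356 CPM when pooled, but SG male leukocytes held it at 526 CPM (263 to 941, on 11 UMIs), above the 398 CPM of SG male postmitotic cells. Nes and Sox2 were each at 15.4 CPM (4.203 to 39.5), on 4 UMIs from the SG libraries alone, beside 73.7 and 55.2 CPM in cycling cells. SG female leukocytes held Nes at 82.2 CPM (17.0 to 240.2) and SG male leukocytes held Sox2 at 143 CPM (29.6 to 419). Within the SG libraries leukocytes thus did not set these genes apart from background. The Sox2 and the Sox9 UMIs of SG male leukocytes each came from 2 of 10 cells. YSG leukocytes gave 0 UMIs of Nes and Sox2, with upper limits of 47.6 CPM in males and 29.7 CPM in females. Nes in YSG cycling cells, at 76.2 and 54.1 CPM, lay above these limits, and Sox2, at 29.8 and 27.3 CPM, lay below them. Gfap, Gdf10 and Prom1 gave no UMI in leukocytes, where 3 UMIs would be 11.6 CPM, so these cells set no useful limit for them. Vim was at 343 CPM in leukocytes, which are known to make it.

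A further measure was the level in tumour cells as a share of that in Aqp4-positive cells, since free RNA of 1 source keeps its genes in 1 ratio. The choice of tumour cells had left out those with 40 or more UMIs per 10000 from 4 or more astroglial reference genes. That choice can lower the shares of the reference genes and does not act directly on the members, and its part was not tested. Over the 12 astroglial reference genes the median share in cycling cells was 1.36%, 0.951% and 1.87% in the first 3 libraries, and over 9 of them it was 2.74% in YSG females. Slc1a2 was the highest reference gene, at 21.2%, 27.5%, 24.3% and 62.9%. Sox2, Sox9 and Prom1 stood above the highest reference gene in cycling cells of every library, and Nes and Vim in all but YSG females. Gdf10 did so in SG females alone, on 9 UMIs in the Aqp4-positive cells, and Prom1 rested on 1 such UMI in each YSG library. In postmitotic cells Sox2 lay within the reference genes in all 4 libraries, and Nes and Prom1 in all but YSG males. Vim lay within them in all but SG males, and Sox9 in YSG females alone. Fabp7 was at 2.02%, 0.689%, 2.40% and 1.90%, within the reference genes, and so were Gfap (4.04% to 8.85%), Slc1a3 (3.70% to 10.7%) and Hopx (2.44% to 20.8%).

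At the median reference share, free RNA would give 44.0, 28.6, 44.5 and 17.6 CPM of Fabp7 in cycling cells, beside the 65.3, 20.7, 57.1 and 12.2 CPM measured. For Slc1a3 the same reckoning gives 19.6 to 24.4 CPM, and the measured level was higher in every library. The astroglial genes need not come from the same cells in the same amounts as the members, and the choice of tumour cells can lower their shares. The reckoning is therefore a scale and not a correction.

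**Figure D3:**
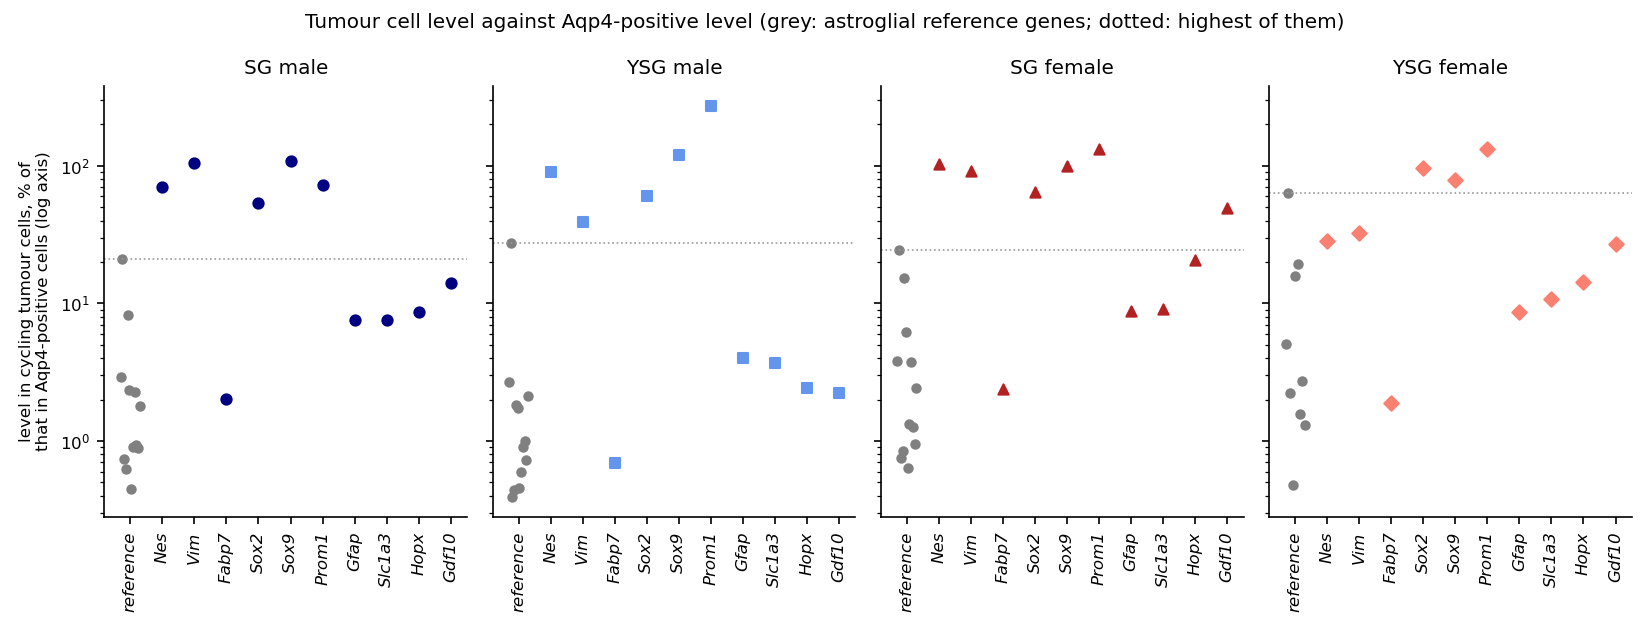
Level in cycling tumour cells as a percentage of the level in Aqp4-positive cells of the same library (log axis), 1 panel per library. Grey points are the astroglial reference genes, 12 in each library but 9 in YSG females, the dotted line is the highest of them (Slc1a2) and coloured points are the members. Sox2, Sox9 and Prom1 lie above the line in all 4 panels and Fabp7 lies among the grey points.

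Between the genotypes, Fabp7, Sox2 and Vim were lower and Gfap was higher in YSG than in SG cycling tumour cells of both sexes. With 1 library per genotype and sex there is no test, and the 95% intervals given here cover counting error only. Sox2 was at 62.6 CPM in SG against 29.8 CPM in YSG males, a YSG over SG fold of 0.477 (0.438 to 0.518). In females the levels were 75.9 and 27.3 CPM, a fold of 0.359 (0.329 to 0.393). For Vim the male levels were 473 and 258 CPM, a fold of 0.546 (0.530 to 0.562), and the female levels 556 and 240 CPM, a fold of 0.431 (0.418 to 0.444). Neither gene overlapped between the genotypes, and nor did Fabp7, Gfap, Hopx, Slc1a3, Sox9 or Prom1 in these cells. With so few libraries a gene can separate by order alone. The share of all genes that did so was not counted. The SG libraries of the 2 sexes differed less, with male over female folds of 0.825 for Sox2 and 0.850 for Vim, and so did the YSG libraries, with 1.09 and 1.08.

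The Fabp7 folds were the lowest of the members, 0.317 (0.288 to 0.349) for males and 0.214 (0.188 to 0.243) for females. In postmitotic cells they were 0.307 (0.269 to 0.351) and 0.311 (0.270 to 0.359). Aqp4-positive cells were also fewer in YSG, as given above, and held 40.6%, 32.9%, 43.6% and 8.97% of all Fabp7 UMIs of their libraries. The astroglial reference genes in the same cycling cells had a median YSG over SG fold of 1.01 in males and 0.435 in females. When the level that the median reference share gives was subtracted in each library, the folds of Fabp7, with a pseudocount of 1 CPM, went from 0.328 to 0.0449 in cycling cells of males, from 0.228 to 0.0736 in those of females, and from 0.316 to 0.0221 and from 0.324 to 0.0379 in postmitotic cells. In both YSG libraries the measured level was below the amount subtracted, so these folds set SG against the pseudocount alone.

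Gfap was at 5.40 CPM in cycling cells of SG males and 17.4 CPM in those of YSG males, a fold of 3.22 (2.71 to 3.84). The female levels were 7.08 and 11.7 CPM, a fold of 1.65 (1.39 to 1.95). In postmitotic cells the folds were 3.74 (2.82 to 5.05) and 2.13 (1.64 to 2.81). No single tumour cell held more than 5.28% of the Gfap UMIs of its library and cell group. The Gfap level in tumour cells, as a share of that in Aqp4-positive cells, lay within the range of the reference genes, whose top was Slc1a2. In cycling cells of every library it lay above their median share. With the same subtraction and pseudocount the Gfap folds went from 2.88 to 2.63 and from 1.57 to 1.37 in cycling cells of males and females, and from 3.37 to 3.18 and from 2.004 to 1.65 in postmitotic cells.

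Among the other members in cycling cells, the male and female folds of Hopx were 0.509 (0.437 to 0.592) and 0.521 (0.451 to 0.601), those of Slc1a3 0.725 and 0.656, and those of Sox9 0.771 and 0.814. Prom1 had folds of 1.72 (1.42 to 2.08) and 1.17 (0.956 to 1.42). Nes, given above in each library, had a male fold of 1.09 (1.02 to 1.16) and a female fold of 0.644 (0.602 to 0.688). Gdf10 was near 2 to 3 CPM throughout.

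In cycling cells of males, 9 members reached 5 CPM, of which 1 was higher by 2-fold or more (Gfap) and 2 were lower (Fabp7 and Sox2), beside 1.90% of 9954 genes higher and 2.51% lower by the same rule. In cycling cells of females none was higher and 3 were lower (Vim, Fabp7 and Sox2), beside 2.22% higher and 2.54% lower of 10067 genes. The median log2 ratio of the 10 members, with a pseudocount of 1 CPM, was −0.42 in males and −0.61 in females, where the median of all genes was −0.00 and −0.01.

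In postmitotic cells the members lay in both directions, with a median log2 ratio of −0.03 for males and −0.04 for females. Gfap was 2-fold or more higher and Fabp7 2-fold or more lower in each sex, among 8 members at 5 CPM, beside 1.41% of genes higher and 1.23% lower in males and 2.07% higher and 1.08% lower in females. In females Gfap was only just past 2-fold, at a log2 ratio of 1.003, and was under it at 0.72 to 0.98 with 6 of 9 other settings. Nes had a male fold of 2.002 (1.67 to 2.40), which is under 2-fold with the pseudocount (a log2 ratio of 0.96), and a female fold of 1.12 (0.951 to 1.32). Gdf10, under 5 CPM in each library, had folds of 2.71 (1.22 to 6.85) on 8 and 30 UMIs in males and 4.52 (2.28 to 10.2) on 9 and 89 UMIs in females. Sox2 had folds of 0.641 (0.491 to 0.837) and 0.736 (0.597 to 0.909), nearer to 1 than in cycling cells, though this difference between cell groups was not tested. With cell groups from clusters the female Sox2 log2 ratio turned from −0.41 to 0.73.

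**Figure D4:**
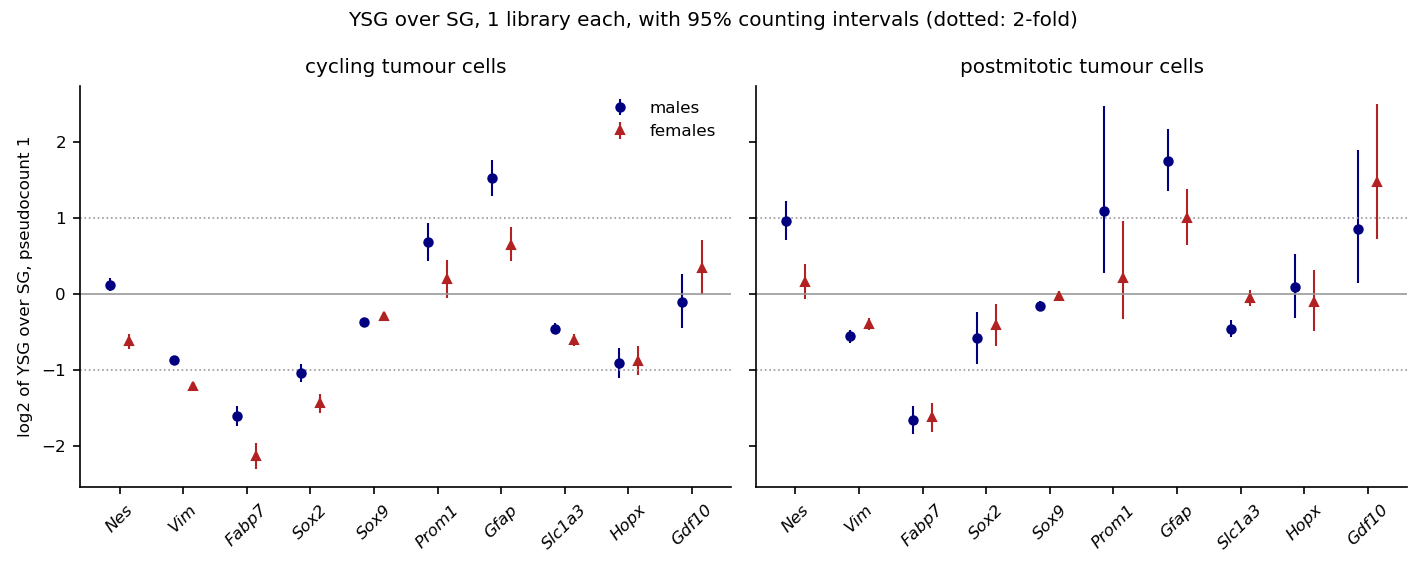
Log2 ratio of YSG over SG for each gene in cycling (left) and postmitotic (right) tumour cells of males (circles) and females (triangles), with a pseudocount of 1 CPM and 95% counting intervals; dotted lines mark 2-fold. Fabp7 lies below −1 in all 4 comparisons and Sox2 in both sexes of cycling cells, while Gfap lies above 0 in all 4.

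Among the further stem and glial progenitor genes, 3 of 18 at 5 CPM were lower by 2-fold or more in cycling cells of YSG males and 4 of 18 in females, beside the 2.51% and 2.54% of all genes given above, and none was higher. Tnc, Cd44 and Mfge8 were the 3 in males, with folds of 0.0930, 0.389 and 0.287. In females the 3 lowest were Cd44 at 0.292, Ptprz1 at 0.304 and Tnc at 0.351, and Hes1 was at 0.398. Tnc encodes the matrix protein tenascin-C and Cd44 the hyaluronan receptor, both well known in glia. In postmitotic cells none of 14 was lower by 2-fold or more, beside 1.23% of all genes in males and 1.08% in females. Zfp36l1 was higher, by 2.76-fold in males and 2.82-fold in females, as was Ptn in females, by 2.20-fold. Of all genes, 1.41% were higher in males and 2.07% in females.

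Within Aqp4-positive cells the genotypes were compared with few cells, 29 and 13 in YSG. Yap1 there was at 12.3 CPM in SG and 10.6 CPM (2.18 to 30.9) in YSG males, on 16 and 3 UMIs, and at 8.35 CPM and 0 UMIs in SG and YSG females, so the loss of Yap1 was not seen in the Aqp4-positive cells of the library labelled YSG male and was not detectable at this depth in females. In males Gfap was at 70.8 and 431 CPM, a fold of 6.08 (4.60 to 8.06), and Gdf10 at 16.2 and 91.8 CPM, a fold of 5.68 (3.07 to 10.6). Gdf10 UMIs came from 9 of 101 SG and 8 of 29 YSG cells, and Gfap UMIs from 38 and 16 cells. Hopx had a fold of 1.81 (1.44 to 2.26), Slc1a3 of 1.48 (1.36 to 1.61) and Vim of 1.46 (1.23 to 1.72). Sox2 and Sox9 were lower, with folds of 0.422 (0.225 to 0.731) and 0.706 (0.587 to 0.843), and Fabp7 had a fold of 0.932 (0.865 to 1.003).

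In females the Aqp4-positive folds were 1.69 (1.05 to 2.60) for Gfap, 0.271 (0.223 to 0.326) for Fabp7, 0.557 (0.462 to 0.666) for Slc1a3 and 0.238 (0.0766 to 0.563) for Sox2. These rest on the 13 cells of which only 4 carried the astroglial list. With cells chosen by 1 or more Aqp4 UMIs together with that list, a choice made after seeing the data, 5 YSG cells remained, and Gfap was 8.88-fold higher (5.99 to 12.9) while Fabp7 was at 0.795 (0.641 to 0.975) and Slc1a3 at 0.892 (0.677 to 1.15). In males this choice left 18 YSG cells and gave 6.04 (4.41 to 8.30) for Gfap and 0.956 (0.884 to 1.03) for Fabp7. With a cluster rich in the astroglial list in place of the gate, 191, 139, 149 and 44 cells, Gfap was higher in both sexes, at 3.78 and 3.04, and Fabp7 was lower in both, at 0.430 and 0.286. A smaller cluster of 56 cells that carried both the list and leukocyte markers (77.0 UMIs per 10000) was not part of that choice.

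Gfap thus lay above 1 in both sexes with all 3 choices of cells. The Sox2 folds lay below 1, though with Aqp4 and the list the female interval (0.0674 to 2.07) spanned 1, and the first choice rested on 14 and 5 UMIs in YSG. The folds of other members depended on the choice, Fabp7, Slc1a3 and Vim among them, and in males Slc1a3 and Vim lay on both sides of 1. In females the 3 choices gave 0.762, 2.18 (1.03 to 4.12) and 1.35 for Hopx, and 1.04, 0.654 and 0.760 for Sox9. For male Nes they gave 0.853, 0.203 (0.0239 to 0.775) and 0.837. The astroglial list summed to 88.4, 113, 67.7 and 26.3 UMIs per 10000 in the Aqp4-positive cells, and its part in these folds was not tested.

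**Figure D5:**
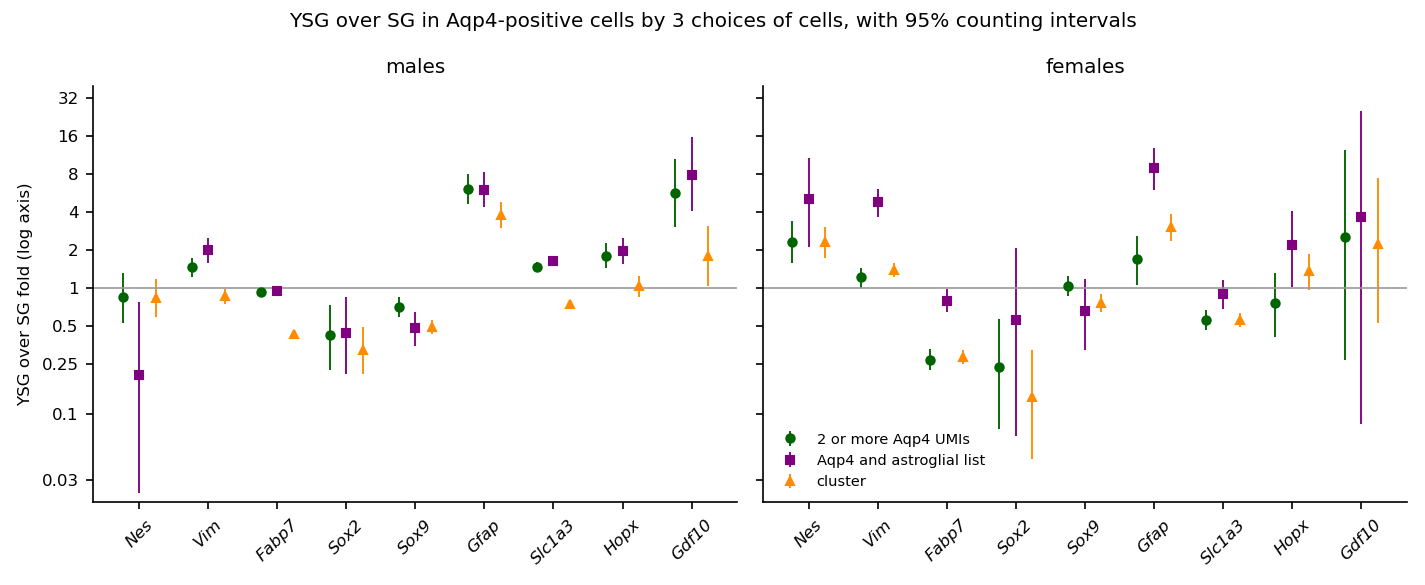
YSG over SG fold (log axis) of 9 genes in Aqp4-positive cells of males (left) and females (right) by 3 choices of cells: 2 or more Aqp4 UMIs, Aqp4 together with the astroglial list, and the astroglial cluster. Bars are 95% intervals of counting error, and Prom1 is left out because YSG had at most 3 UMIs of it. Gfap lies above 1 for every choice, and the Fabp7 and Slc1a3 points differ between choices.

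In single Aqp4-positive cells the members were found together in part. The median cell had a UMI of 6 of the 10 members in 3 libraries and of 5 in YSG females. Hopx was found with Gfap in 26 of 38, 12 of 16, 41 of 51 and 4 of 7 of the Gfap-positive cells. Gdf10 was found with Gfap in 5 of 9, 3 of 8, 2 of 6 and 1 of 2 of the Gdf10-positive cells. Cells differ in depth, so these counts describe detection and not the absence of a transcript.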

How the data were processed

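The deposited matrices hold counts of UMIs per gene and cell barcode, not normalized, made by the authors with Cell Ranger 5.0.1 per the file headers, on mm10 per the submitters' processing notes. The 4 libraries (SG then YSG males, SG then YSG females) held 8505, 8013, 7726 and 7289 barcodes and 73271922, 61072375, 86906706 and 58478914 UMIs. Barcodes needed 500 UMIs, 300 genes and a mitochondrial share of 20% or less, leaving 8419, 7882, 7656 and 7193. Scrublet (scanpy 1.11.5) called 0 doublets at its own threshold, so none was removed, and an alternative left out the 368 to 418 cells of each library with the highest scores. UMIs were summed per library and cell group, and the 12 sums were fitted with edgeR 4.0.16 (TMM scaling, quasi-likelihood, library as a block, since the 3 groups come from the same libraries, Benjamini-Hochberg over all genes tested, 0.05). The libraries differ in genotype and sex, which enters that spread, and nothing says how many animals they hold. Genotype ratios used CPM of summed counts with exact conditional binomial intervals, and those with a pseudocount of 1 CPM were called at 2-fold among genes at 5 CPM or more in either library. The fit was tested on counts simulated with a dispersion of 0.05. Between Aqp4-positive and cycling cells it found 34% of the 2-fold and 83% of the 4-fold changes, and against postmitotic cells 36% and 83%. A gene that did not pass is therefore not shown by that alone to have equal levels. All 10 members were described. From the other lists, the 3 genes with the largest called change in each direction were chosen by rule, and values of further genes, Hes1 and Zfp36l1 among them, were chosen after they were seen. The members and lists were chosen with earlier results of these data known. Clusters came from leidenalg 0.10.2, computed without the members. Alternatives included DESeq2 1.42.0.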

Additional observations from a re-analysis of the deposited data

Results flagged for a closer look

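For 2 members the direction differed between the sexes with both counting intervals off 1. In cycling tumour cells the YSG over SG fold of Nes was 1.09 in males and 0.644 in females, and in Aqp4-positive cells that of Slc1a3 was 1.48 in males and 0.557 in females. The difference between the sexes was not tested. For Slc1a3 the female value was 0.892 (0.677 to 1.15) when the cells also had to carry the astroglial list.

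Of 30 sets of 4 library values, 1 set for each member and cell group, 3 had a library far from the others, where chance gives about 1 in 20. All 3 were in Aqp4-positive cells: Nes at 192 CPM in YSG females, Sox9 at 498 CPM in YSG males and Gdf10 at 91.8 CPM in YSG males. The Nes value rested on 34 UMIs in 7 cells and the Gdf10 value on 26 UMIs in 8 cells.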

How the results depend on the processing

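Of 480 refits of single member folds between cell groups, 462 kept the side of the threshold, and no called fold changed direction. Folds that were not called changed sign in some refits. These were Nes and Prom1 between Aqp4-positive and cycling cells, and Fabp7, Gfap and Gdf10 between cycling and postmitotic cells. The call was lost in 14 refits (10 of Vim and 4 of Sox2, between Aqp4-positive and cycling cells). It was gained in 4 (Gfap 2, Slc1a3 1 and Sox9 1). The number of genes called between Aqp4-positive and cycling cells was 3989, and 6219 with no filter on low counts, where more genes were tested. Leaving out 1 library gave 2135 to 3869, the lowest without SG males. Between Aqp4-positive and postmitotic cells it was 5119, and 3345 to 5170 with 1 library left out, the lowest again without SG males. Between cycling and postmitotic cells it was 7847, and 6195 to 7643 with 1 library left out. With no replicate block, which drops the pairing of cell groups by library, the counts were 3003, 4294 and 5506. Subtracting background moved the median log2 YSG over SG ratio in cycling cells from −0.42 to −0.54 in males and from −0.61 to −0.72 in females. Cell groups from clusters moved that in postmitotic cells from −0.03 to −0.34 in males and from −0.04 to 0.19 in females, and the cause was not tested. In Aqp4-positive cells a log2 ratio of at least 1 in size was called reversed when its sign changed. There were 3 of these, all in females. Nes went from 1.21 to −0.10 with 1 or more Aqp4 UMIs. Fabp7 went from −1.88 to 0.34 and Gdf10 from 1.18 to −2.06 with 4 or more, which left 2 YSG female cells. Smaller ratios also changed sign. The female Vim fold went from 1.21 to 0.728 with 1 or more, and that of Hopx from 0.762 to 1.76 with 4 or more. Of 120 ratios under other settings, in both sexes, a further 47 left the counting interval of the main value. RLE scaling and the gate with the astroglial list were added after the data were seen. Thinning lowered all 30 shares. Depth limits Prom1 and Gdf10 most, at 1 or 2 UMIs in the Aqp4-positive cells of YSG females.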
